A study of Mus musculus with 8 samples.

Results

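The genes described are 37 genes of the unfolded protein response and of the linked ATF4 stress response. They were taken as the probe sets to which the platform annotation gives exactly 1 symbol of the list, with the brightest probe set kept per gene, and all 37 were found among 19938 genes measured this way. RNA came from 2 mouse cell lines. MBA-15 is a pre-osteoblastic stromal line and DA3 a mammary adenocarcinoma line. There were 4 groups of 2 arrays, each line once from co-culture and once cultured alone, with no added agent and no altered gene named for any group. In co-culture DA3 cells were seeded onto an MBA-15 layer. They were later parted from it by magnetic particles that bind EpCAM, a surface protein of epithelial cells, so that DA3 is the bound and MBA-15 the unbound fraction. All 8 sample descriptions name 24 h, and all 8 cultures carry the same date. Each line is a single line, and the labels do not state whether a group's 2 arrays stem from separate cultures. The p-values therefore measure only the spread between these samples, possibly technical.

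The endoplasmic reticulum (ER) folds secreted and membrane proteins. When unfolded proteins gather there, the sensors IRE1 (Ern1), PERK (Eif2ak3) and ATF6 are activated. IRE1 splices Xbp1 mRNA and ATF6 is cut to a free transcription factor. Both routes raise ER chaperones and the genes of ER-associated degradation, which sends misfolded proteins to the proteasome. PERK phosphorylates the initiation factor eIF2alpha, and so do kinases that sense amino acid shortage, heme and double-stranded RNA. This slows translation in general but favours that of Atf4, whose protein raises genes of amino acid synthesis and uptake, Trib3, Chac1 and, with further stress, Ddit3 (CHOP). The arrays read the amount of mRNA only: neither Xbp1 splicing nor the state of the 3 sensors was measured.

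Some promoters of these genes hold the letters of known binding sites of both routes. Examples are shown because the patterns differ between the chaperones and the ATF4 targets Trib3, Chac1 and Asns. A match was found in 14 members, and Herpud1 held patterns of both kinds. RefSeq promoter windows (GRCm38.p6, 250 bases before to 50 after an annotated start) were held for 33 of the 37 members, in 36 windows, and not for Atf6, Hyou1, Manf and Slc7a5. The ER stress element (ERSE), bound by ATF6 and XBP1 with NF-Y, was searched on both strands as CCAAT and CCACG with 9 bases of any kind between them. It matched in 39 of all 32851 windows (0.119%). Among members it matched in 7 of 12 chaperone genes (Hspa5, Hsp90b1, Calr, Canx, Pdia6, Dnajc3 and Creld2) and in Syvn1. It matched in none of the windows of the sensors and factors, of the stress targets or of the amino acid genes, which is near the share of all windows. The capitals below mark the motif, and each line is read 5′ to 3′ on the strand of its gene.
Hspa5, chr2:34772013-34772055 (+): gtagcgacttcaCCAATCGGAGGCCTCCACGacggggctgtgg
Hsp90b1, chr10:86705626-86705668 (-): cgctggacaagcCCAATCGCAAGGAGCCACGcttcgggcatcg
Hsp90b1, chr10:86705521-86705563 (-): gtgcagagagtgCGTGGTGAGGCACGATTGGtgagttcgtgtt
Pdia6, chr12:17266479-17266521 (+): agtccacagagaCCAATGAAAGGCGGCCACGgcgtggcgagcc
Dnajc3, chr14:118937815-118937857 (+): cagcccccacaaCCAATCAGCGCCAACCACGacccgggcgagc
Creld2, chr15:88819508-88819550 (+): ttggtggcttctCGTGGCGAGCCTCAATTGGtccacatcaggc

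Hsp90b1 has 2 matches, and its second match and that of Creld2 stand on the opposite strand. A second element, ERSE-II, was searched on both strands as ATTGG and CCACG with 1 base of any kind between them, and shares the letters CCACG with the first. It matched in 12 of all windows (0.0365%), 2 of them those of Herpud1 and Dnajb11. The Dnajb11 match lies just inside the transcribed part, from base 8 to base 18.
Herpud1, chr8:94386365-94386399 (+): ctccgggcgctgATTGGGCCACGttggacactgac
Dnajb11, chr16:22857843-22857871 (+): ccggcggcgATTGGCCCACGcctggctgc

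The composite site of ATF4 with C/EBP proteins was searched as TGATGNAA on both strands. This shorter pattern matched in 3.97% of all windows. Among members it matched in Trib3, Chac1, Asns, Vldlr and Herpud1. These are 5 of the 36 member windows (13.9%). By gene, the pattern was in 3 of 5 stress targets, 1 of 6 amino acid genes and 0 of 12 chaperone genes. With the pattern in 4.51% of all genes, 0 of 12 does not set the chaperones apart.
Trib3, chr2:152344028-152344057 (-): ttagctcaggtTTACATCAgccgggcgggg
Chac1, chr2:119351037-119351068 (+): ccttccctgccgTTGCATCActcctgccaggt
Asns, chr6:7693213-7693244 (-): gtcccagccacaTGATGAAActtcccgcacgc

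For comparison, the 250 bases before the start of Hspa5 (chr2:34771840-34772089, plus strand) and of Chac1 (chr2:119350992-119351241, plus strand) are given whole, with the ERSE and the ATF4 pattern in capitals. The Hspa5 match starts 65 bases before the start and the Chac1 match 193 bases before it.
Hspa5: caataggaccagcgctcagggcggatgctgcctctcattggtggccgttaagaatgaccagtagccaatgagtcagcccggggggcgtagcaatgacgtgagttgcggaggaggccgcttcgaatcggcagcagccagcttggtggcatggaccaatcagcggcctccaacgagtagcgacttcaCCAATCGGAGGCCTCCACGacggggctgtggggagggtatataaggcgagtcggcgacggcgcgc
Chac1: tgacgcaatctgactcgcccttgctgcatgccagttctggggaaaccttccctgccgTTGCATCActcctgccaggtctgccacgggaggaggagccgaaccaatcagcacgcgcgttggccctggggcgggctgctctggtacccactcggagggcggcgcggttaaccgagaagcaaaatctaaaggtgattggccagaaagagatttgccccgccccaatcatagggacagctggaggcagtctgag
A match is a description of letters and says nothing on binding in these cells.

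**Figure D1:**
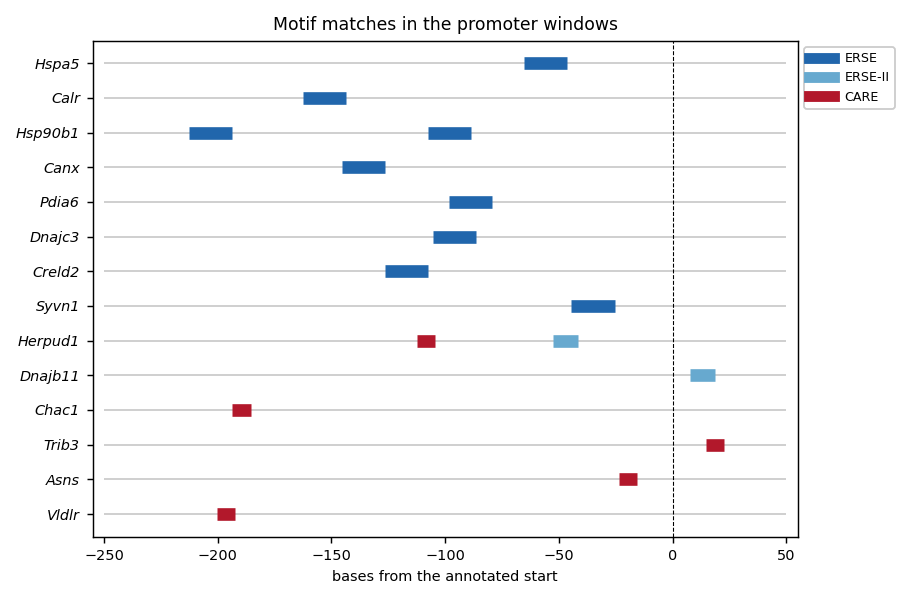
Position of each ERSE (dark blue), ERSE-II (light blue) and ATF4 composite pattern (CARE, red) in the promoter windows of the 14 members with a match, in bases from the annotated start (dashed line); grey lines span the window. The ERSE matches lie before the start, between 212 and 26 bases from it, and the Trib3 and Dnajb11 matches lie just behind it.

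The deposited values are log2 levels of 1 probe set per gene, so that 1 unit is a doubling of the level, and levels of different genes are not compared. All 37 members lay above the lowest array median of 4.479 on all 8 arrays. The descriptions of all 4 arrays labelled alone hold the word mix and mark a positive or negative fraction, and what was mixed is not stated. Epcam checked the separation and went against the label of 1 group: it stood at 8.45 and 9.25 where the label reads MBA-15 alone, at 5.58 and 5.19 in MBA-15 co-culture, at 9.57 and 9.46 in DA3 alone and at 9.30 and 9.38 in DA3 co-culture. The summed linear level of the 14 epithelial markers was 4981 and 6341 in that same group, 577 and 519 in MBA-15 co-culture, and between 7589 and 10769 on the 4 DA3 arrays. The summed level of the 16 stromal markers was 2937 and 1600 in DA3 co-culture against 850 and 976 in DA3 alone, and between 9104 and 14600 on the MBA-15 arrays. Of the stromal markers, Thy1, Fap and Postn were below 4.479 on all arrays, as were 5 of the 6 leukocyte markers, all but Cd68. A change of an array that holds RNA of both lines can reflect their shares, and in bulk RNA fewer cells of a type and less RNA per cell cannot be told apart.

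**Figure D2:**
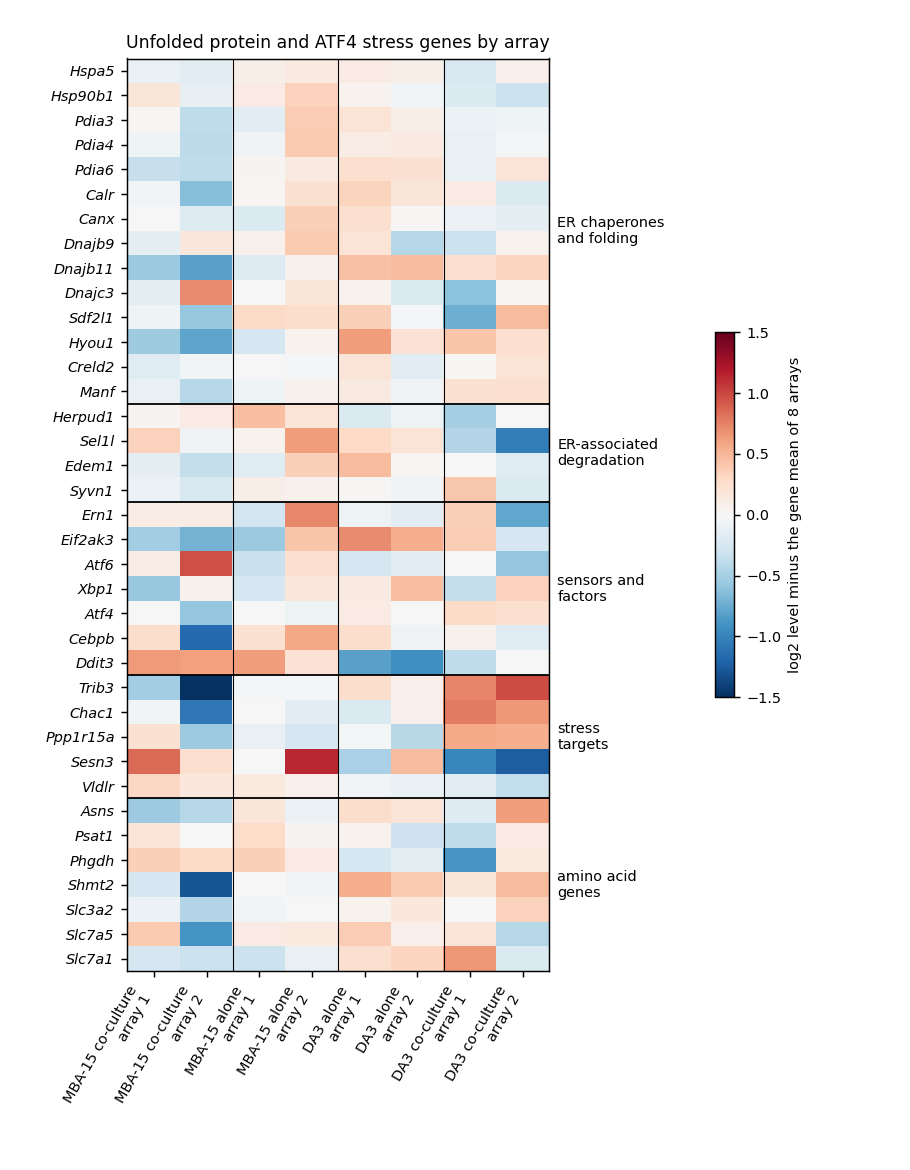
Log2 level of each of the 37 genes (rows, by role) on each of the 8 arrays (columns), minus the gene's mean over the 8 arrays; red is above and blue below that mean. Trib3, Chac1 and Ppp1r15a are above their mean on both DA3 co-culture arrays, Ddit3 is below its mean on both DA3 alone arrays, and MBA-15 co-culture array 2 has the lowest values of Trib3, Chac1, Cebpb and Shmt2.

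The first comparison set DA3 from co-culture against DA3 alone, and asks what the stromal partner changes in DA3 cells. No member passed an adjusted p of 0.05 (limma with Benjamini-Hochberg adjustment over all 19938 genes), where 0.01% of all genes were called higher and 0.0301% lower (0.0401% in all). At an unadjusted p under 0.05 there were 3 members higher and 2 lower, against 5.42% and 9.49% of all genes. The stress targets Trib3, Chac1 and Ppp1r15a, together with Ddit3, gave values of 0.68 to 0.79 log2 units above DA3 alone. The other stress targets, Sesn3 and Vldlr, had -1.11 and -0.20. The amino acid genes, also known ATF4 targets, lay near 0, with a median difference of -0.07 over 7 genes, which was 0.24 without DA3 co-culture array 1. Of the 14 ER chaperone and folding genes, 12 had a value below 0, with a median of -0.20. Over all 37 members, 28 had a value below 0 (75.7%, against 44.6% of all genes), and the median over all genes was 0.04.

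Trib3, a pseudokinase that ATF4 and CHOP induce, was at 7.72 and 7.97 in DA3 co-culture and at 7.25 and 7.06 in DA3 alone. Both co-culture arrays lay above both others, as in 31.4% of all genes. The difference was 0.69 ± 0.30 log2 units (SE, limma, adjusted p = 0.349), or 1.61-fold. Chac1, an enzyme that breaks down glutathione, was at 7.07 and 6.94 against 6.07 and 6.37. Here too the arrays did not overlap, with a difference of 0.79 ± 0.32 (limma, adjusted p = 0.327). Ppp1r15a (GADD34), the phosphatase subunit that reverses eIF2alpha phosphorylation, was at 6.64 and 6.62 against 6.06 and 5.66. Its co-culture arrays lay close together and above both others, and the difference was 0.77 ± 0.27 (limma, adjusted p = 0.285). Ddit3, which encodes the death-linked factor CHOP, was at 5.50 and 5.89 in co-culture and at 5.07 and 4.96 alone, a difference of 0.68 ± 0.19 (limma, adjusted p = 0.231). Its level in MBA-15 co-culture was 6.52 and 6.49, so Ddit3 is higher in the line whose markers the DA3 co-culture arrays also hold more of. On DA3 co-culture arrays 1 and 2 the summed level of the stromal markers was 2937 and 1600, with Ddit3 at 5.50 and 5.89. The part of stromal RNA in the Ddit3 difference was not tested. DA3 alone arrays 1 and 2 have assay numbers 4 and 3, and DA3 co-culture arrays 1 and 2 have 3 and 5. No other array has assay number 5, so culture and assay number are partly confounded here. Within assay 3, the only assay number of the descriptions that holds both groups, 1 array stands against 1. The difference there was 0.66 for Trib3, 0.71 for Chac1, 0.98 for Ppp1r15a and 0.55 for Ddit3.

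Atf4 itself, the factor whose translation the pathway controls, was at 7.56 and 7.52 in DA3 co-culture and at 7.40 and 7.28 alone, a difference of 0.20 ± 0.20 (limma, adjusted p = 0.627). The other 2 stress targets had values on the other side. Sesn3, a sestrin that restrains mTORC1, was at 4.99 and 4.74 in co-culture against 5.49 and 6.45 alone, a difference of -1.11 ± 0.46 (limma, adjusted p = 0.333). Its DA3 alone arrays were nearly 1 log2 unit apart. The lipoprotein receptor gene Vldlr differed by -0.20 ± 0.13. Among the sensors, the PERK gene Eif2ak3 was at 6.65 and 6.03 against 6.99 and 6.83 (-0.57 ± 0.34, limma, adjusted p = 0.455), both below. The arrays of Ern1, Atf6, Xbp1 and Cebpb overlapped between the groups. Ern1 was at 5.91 and 4.78 on the 2 DA3 co-culture arrays, a wider gap than its group difference of -0.09 ± 0.43. Xbp1, the factor that IRE1 activates by splicing, was at 7.28 and 7.98 against 7.77 and 8.09 (-0.30 ± 0.32).

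The chaperones showed small values, 12 of 14 below 0. Hspa5 (BiP), the main ER Hsp70 and the gene with the ERSE shown above, was at 10.55 and 10.87 in DA3 co-culture and at 10.91 and 10.88 alone. The difference was -0.19 ± 0.14 (limma, adjusted p = 0.534). Calr (calreticulin), a lectin chaperone, was at 10.59 and 10.25 against 10.80 and 10.65 (-0.31 ± 0.23, limma, adjusted p = 0.527). The ER Hsp90 gene Hsp90b1 was at 11.15 and 11.04 against 11.41 and 11.32 (-0.27 ± 0.16, limma, adjusted p = 0.44). In Hspa5, Calr and Hsp90b1 both co-culture arrays lay below both others, in Hspa5 only just. The calreticulin partner Canx (calnexin) differed by -0.24 ± 0.21 and the disulfide isomerase genes Pdia3, Pdia4 and Pdia6 by -0.22, -0.19 and -0.20. In 8 of the 14 genes both co-culture arrays lay below both alone arrays, against 22.4% of all genes. Sdf2l1, a partner of BiP, had the widest spread, at 5.93 and 7.13 in co-culture against 7.02 and 6.63 (-0.29 ± 0.39). Only Manf, a secreted ER stress protein, at 7.69 and 7.70 against 7.60 and 7.41, had both co-culture arrays above both others. Creld2, also an ER stress gene, had the other value above 0 (0.10 ± 0.16), and its arrays overlapped.

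Of the 4 genes of ER-associated degradation, Sel1l, the membrane partner of the ubiquitin ligase Syvn1 (HRD1), had the largest value. It was at 7.46 and 6.86 in DA3 co-culture and at 8.20 and 8.10 alone, a difference of -0.99 ± 0.28 (limma, adjusted p = 0.232), and -0.64 within assay 3. The mannosidase-like Edem1, at 7.87 and 7.70 against 8.35 and 7.91, differed by -0.34 ± 0.24 without overlap of the arrays. Syvn1, at 6.86 and 6.24 against 6.47 and 6.40 (0.11 ± 0.21), and Herpud1 (-0.10 ± 0.19), another ligase cofactor, overlapped. The arrays of all 7 amino acid genes overlapped too. Asns, the asparagine synthetase gene that is a classic ATF4 target, was at 9.95 and 10.76 in co-culture and at 10.40 and 10.33 alone, a difference of -0.01 ± 0.26. The serine pathway genes Psat1, Phgdh and Shmt2 differed by 0.00, -0.16 and -0.14. The transporter genes Slc3a2, Slc7a5 and Slc7a1 differed by 0.07, -0.34 and -0.07. The arrays of DA3 co-culture lay far apart in these genes: Phgdh was at 7.50 and 8.51, Slc7a5 at 9.16 and 8.53 and Slc7a1 at 9.04 and 8.17, so that neither array was the higher one throughout. Over all 37 members, 6 (16.2%) had both co-culture arrays above both alone arrays and 13 (35.1%) had both below. Among all genes these shares were 31.4% and 22.4%.

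**Figure D3:**
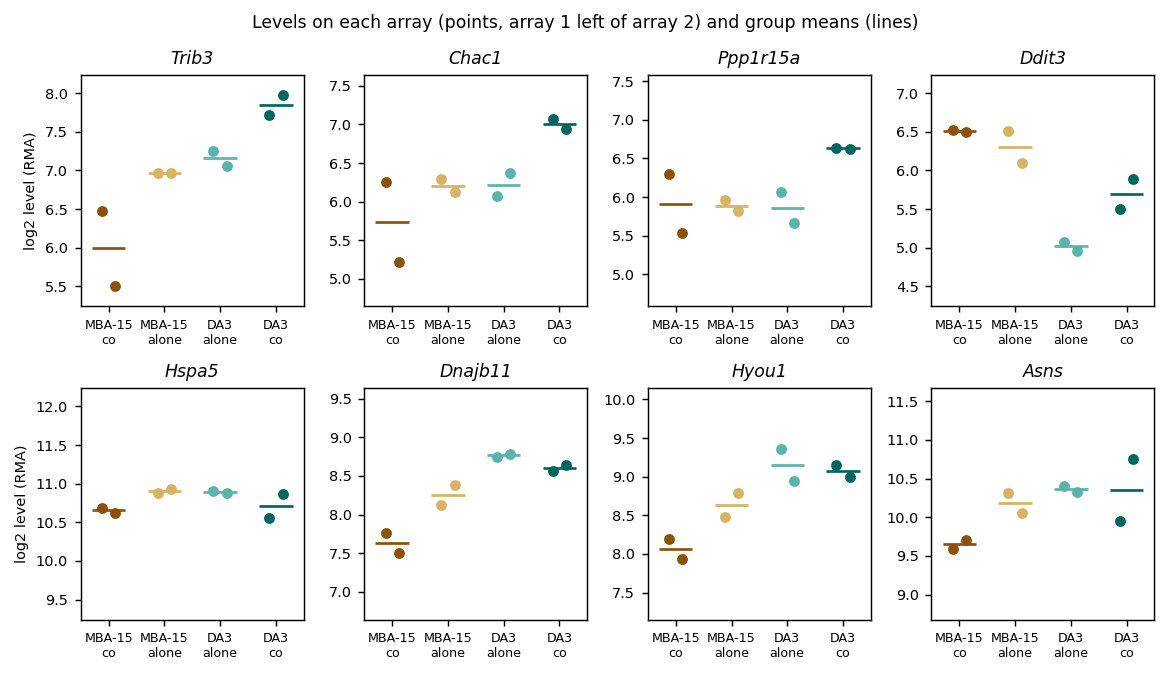
Log2 level of 8 members on each array (points, array 1 left of array 2) with the mean of each group (line); co means co-culture, and every panel spans 3 log2 units. In DA3 co-culture, Trib3, Chac1 and Ppp1r15a lie above all other arrays, while Hspa5 and Asns overlap with other groups or lie close to them, and Dnajb11 and Hyou1 are lowest in MBA-15 co-culture.

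The genes of the same pathways outside the 37 were described from lists. Of 26 other ATF4 targets, 0 passed in either direction, with a median difference of -0.15. The cystine transporter gene Slc7a11 had the largest value, at 7.60 and 8.74 in DA3 co-culture and 9.71 and 9.94 alone (-1.66 ± 0.67, limma, adjusted p = 0.328), and the tRNA exporter Xpot had -0.87 ± 0.26. Of 18 cytosolic aminoacyl-tRNA synthetases, many of them ATF4 targets, 0 passed and the median was 0.07, with Rars at 0.57 ± 0.22 and Tars at 0.41 ± 0.19. Of 39 other genes of ER folding, export and degradation, 0 passed, 29 were below 0 and the median was -0.17. Rcn3, a calcium-binding ER protein gene, had 1.06 ± 0.21 there and Erp29 -0.80 ± 0.25. Rcn3 also had the lowest value of this list in DA3 co-culture against MBA-15 co-culture (-2.71). The part of stromal RNA in the Rcn3 difference was not tested. Of 17 other sensors and factors 0 passed, with a median of -0.30 and the largest values at Bcl2l11 (-0.83 ± 0.40) and Ppp1r15b (-0.74 ± 0.38). The 16 heat shock genes, which answer unfolded protein outside the ER, had a median of -0.08 and 0 passed. Their largest values were -0.43 ± 0.18 for Hspa4l and -0.32 ± 0.24 for Hspd1.

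The second comparison set the MBA-15 fraction of the co-culture against the group labelled MBA-15 alone, and asks what the carcinoma partner changes in MBA-15 cells. No member passed, where 0.0752% of all genes were called higher and 0.772% lower (0.848% in all). At an unadjusted p under 0.05 there were 0 members higher and 4 lower, against 3.29% and 6.52% of all genes. In all, 31 of 37 (83.8%) had a value below 0, against 41.6% of all genes. The lowest values were those of Trib3 (-0.98), Cebpb (-0.86) and Shmt2 (-0.75). The median was -0.27 for the chaperones, -0.24 for the genes of ER-associated degradation, -0.21 for the sensors and factors, -0.03 for the stress targets and -0.24 for the amino acid genes. All 14 epithelial markers were lower in this comparison without overlap, with a median of -3.38, and 12 of them passed. Among the members, 25 of 37 (67.6%) had their mean on the arrays labelled alone between those of MBA-15 co-culture and DA3 alone, against 51.9% of all genes. The source of the epithelial signal on those arrays, and its part in the values of the members, was not tested.

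Trib3 was at 6.47 and 5.51 in MBA-15 co-culture and at 6.96 and 6.97 on those labelled alone, a difference of -0.98 ± 0.30 (limma, adjusted p = 0.304). Both co-culture arrays lay below both others. The gap of 0.96 between its 2 co-culture arrays was nearly as wide as the difference. Without MBA-15 co-culture array 1 the difference was -1.46 and passed (limma, adjusted p = 0.0494), and without array 2 it was -0.50 (adjusted p = 0.607). Dnajb11, an ER J-protein that feeds BiP, was at 7.76 and 7.50 against 8.12 and 8.38 (-0.62 ± 0.15, limma, adjusted p = 0.187), with 8.75 and 8.78 in DA3 alone. Hyou1, an ER Hsp110 that reloads BiP, was at 8.20 and 7.94 against 8.48 and 8.79 (-0.57 ± 0.20), with 9.36 and 8.95 in DA3 alone. Both chaperones thus had a level on the arrays labelled alone that lies between those of the other 2 groups, as did 9 of the 14 chaperone genes by their means. Hspa5, Hsp90b1, Pdia4, Dnajb9 and Sdf2l1 instead had their highest mean on the arrays labelled MBA-15 alone. Sdf2l1 was at 6.59 and 6.09 against 6.95 and 6.92 (-0.59 ± 0.39) and Asns at 9.59 and 9.71 against 10.32 and 10.05 (-0.53 ± 0.26), neither overlapping. Shmt2, the mitochondrial serine hydroxymethyltransferase, was at 8.46 and 7.41 against 8.71 and 8.67 (-0.75 ± 0.32, limma, adjusted p = 0.527), and did not overlap either. Cebpb, a factor that partners ATF4, was at 7.61 and 6.18 against 7.58 and 7.93 (-0.86 ± 0.43, limma, adjusted p = 0.62). Its value rests on array 2, since array 1 lay within the range of the others. Chac1, at 6.25 and 5.22 against 6.29 and 6.12 (-0.47 ± 0.32), and Slc7a5, the light chain of a large amino acid carrier, at 9.35 and 8.07 against 9.09 and 9.11 (-0.39 ± 0.42), overlapped too. The genes of ER-associated degradation lay close together: Edem1 was at 7.74 and 7.52 against 7.69 and 8.24 (-0.34 ± 0.24), Syvn1 at 6.36 and 6.21 against 6.55 and 6.52 (-0.25 ± 0.21), and Herpud1 at 7.33 and 7.41 against 7.74 and 7.48 (-0.24 ± 0.19). Among the sensors, Eif2ak3 was at 5.76 and 5.57 against 5.73 and 6.70 (-0.55 ± 0.34). The largest value above 0 was that of Atf6, at 8.23 and 9.08 against 7.79 and 8.36 (0.58 ± 0.34, limma, adjusted p = 0.69), with overlap. The receptor gene Vldlr, at 6.96 and 6.80 against 6.79 and 6.72 (0.13 ± 0.13), was the 1 member whose co-culture arrays both lay above the others, against 22.3% of all genes, while 15 members (40.5%) had both below, against 16.1%. In the 5 other lists 0 genes passed. The largest values were -1.18 ± 0.34 for Gpt2 and 0.97 ± 0.48 for Cth, -0.93 ± 0.44 for Vars and -0.83 ± 0.19 for Qars, -1.53 ± 0.28 for Edem2, -0.84 ± 0.40 for Bcl2l11, and -0.54 ± 0.27 for Dnajb1.

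The 2 arrays of MBA-15 co-culture differed in the members more than those of DA3 alone. Array 1 was over 0.5 log2 units above array 2 in 9 members (24.3%, against 12.6% of all genes): Cebpb, Slc7a5, Shmt2, Chac1, Trib3, Ppp1r15a, Sesn3, Calr and Atf4. Ppp1r15a was at 6.30 on array 1 and 5.53 on array 2, and Atf4 at 7.27 and 6.69. Of these 9, all but Calr belong to the factor, stress target or amino acid lists. Array 1 was as far below array 2 in 3 members, Dnajc3, Atf6 and Xbp1 (8.11%, against 7.33% of all genes). Of the 26 other ATF4 targets, 8 were over 0.5 higher on array 1 and 2 on array 2, and so were 8 and 0 of the 16 stromal markers. The counts were 6 and 0 of the 17 other sensors and factors and 4 and 1 of the 18 synthetases. They were 6 and 3 of the 39 other ER folding, export and degradation genes and 2 and 2 of the 16 heat shock genes. Over all genes the shares were 12.6% and 7.33%. Higher values on array 1 were thus not confined to ATF4 targets. The arrays differ in their assay number (4 and 3) beside the replicate number. In DA3 alone, 2 of the 37 members were over 0.5 apart (5.66% of all genes), in DA3 co-culture 13 (22.5% of all genes), in MBA-15 co-culture 12 (19.9%) and in the group labelled MBA-15 alone 8 (14.7%).

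The difference between the changes of both lines was tested as an interaction, with DA3 minus MBA-15 as its direction. No member passed (0.0602% of all genes did), and at an unadjusted p under 0.05 there were 2 above 0 and 0 below it, against 2.45% and 3.87% of all genes. In all, 12 of 37 lay below 0 (32.4%, against 47.7%). For Trib3 the interaction was 1.66 ± 0.42 (limma, adjusted p = 0.458). For Chac1 it was 1.26 ± 0.45 (limma, adjusted p = 0.691). Both values use the arrays labelled MBA-15 alone. The other large values were -1.08 ± 0.65 for Sesn3, -0.79 ± 0.39 for Sel1l, 0.74 ± 0.38 for Ppp1r15a, 0.69 ± 0.61 for Cebpb, -0.66 ± 0.49 for Atf6 and 0.61 ± 0.46 for Shmt2, and none passed. The median was 0.20 for the chaperones, 0.06 for the genes of ER-associated degradation, 0.02 for the sensors and factors, 0.74 for the stress targets and 0.05 for the amino acid genes, and 0.02 over all genes. Trib3 and Manf had both DA3 co-culture arrays above DA3 alone and both MBA-15 co-culture arrays below those labelled alone, as in 1.14% of all genes. With Vldlr, which ran the reverse way in both lines, they made 3 of 37 members (8.11%, against 3.32% of all genes).

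The third comparison set the 2 fractions of the co-culture against each other, DA3 minus MBA-15, and shares its arrays with the first 2. The DA3 co-culture arrays have assay numbers 3 and 5 and the MBA-15 co-culture arrays 4 and 3. Line and assay number are therefore partly confounded in this comparison. Here 5 members passed: Trib3, Chac1, Hyou1 and Dnajb11 were higher in DA3 and Ddit3 was higher in MBA-15. These are 4 of 37 higher (10.8%, against 4.48% of all genes) and 1 lower (2.7%, against 8.28%), where 12.8% passed in either direction. At an unadjusted p under 0.05 there were 11 higher and 4 lower, against 12.2% and 15.4% of all genes. Trib3 had the largest difference, 1.85 ± 0.30 log2 units or 3.61-fold (limma, adjusted p = 0.0105), from 6.47 and 5.51 in MBA-15 to 7.72 and 7.97 in DA3. Chac1 was at 6.25 and 5.22 in MBA-15 and at 7.07 and 6.94 in DA3 (1.27 ± 0.32, limma, adjusted p = 0.0479). Dnajb11 was at 7.76 and 7.50 against 8.57 and 8.64 (0.97 ± 0.15, limma, adjusted p = 0.00929), and Hyou1 at 8.20 and 7.94 against 9.15 and 8.99 (1.00 ± 0.20, limma, adjusted p = 0.0218). Ddit3 ran the other way, at 6.52 and 6.49 in MBA-15 and at 5.50 and 5.89 in DA3 (-0.81 ± 0.19, limma, adjusted p = 0.0394). The calls of Chac1 and Ddit3 were the least stable: with 1 array left out, Chac1 passed in 1 of 8 fits (0.76 without MBA-15 co-culture array 2, 1.79 without array 1) and Ddit3 in 3 of 8 (-0.62 without DA3 co-culture array 1).

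With DA3 alone in place of DA3 co-culture, the difference from MBA-15 co-culture was 1.13 for Dnajb11, 1.08 for Hyou1 and -1.49 for Ddit3, which passed. It was 1.16 for Trib3 (limma, adjusted p = 0.0516) and 0.48 for Chac1 (limma, adjusted p = 0.466). Pdia6 passed there as well, so that 4 members passed. The share of all genes that passed with DA3 alone is not given here, so this count is not read as a trait of the members. Which members passed moved with single arrays: 8 without MBA-15 co-culture array 1, 2 without its array 2, 3 without DA3 alone array 1 or 2, 3 without DA3 co-culture array 1, and 5 without DA3 co-culture array 2 or either array labelled MBA-15 alone. Over these 8 fits the difference lay between 0.84 and 1.10 for Dnajb11, 0.87 and 1.13 for Hyou1, and 1.37 and 2.33 for Trib3. With only the 2 groups fitted, the adjusted p was 0.0557 for Dnajb11, 0.0565 for Hyou1 and 0.0694 for Trib3 (limma). With the assay number as a block it was 0.0723, 0.0705 and 0.0343 (limma).

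**Figure D4:**
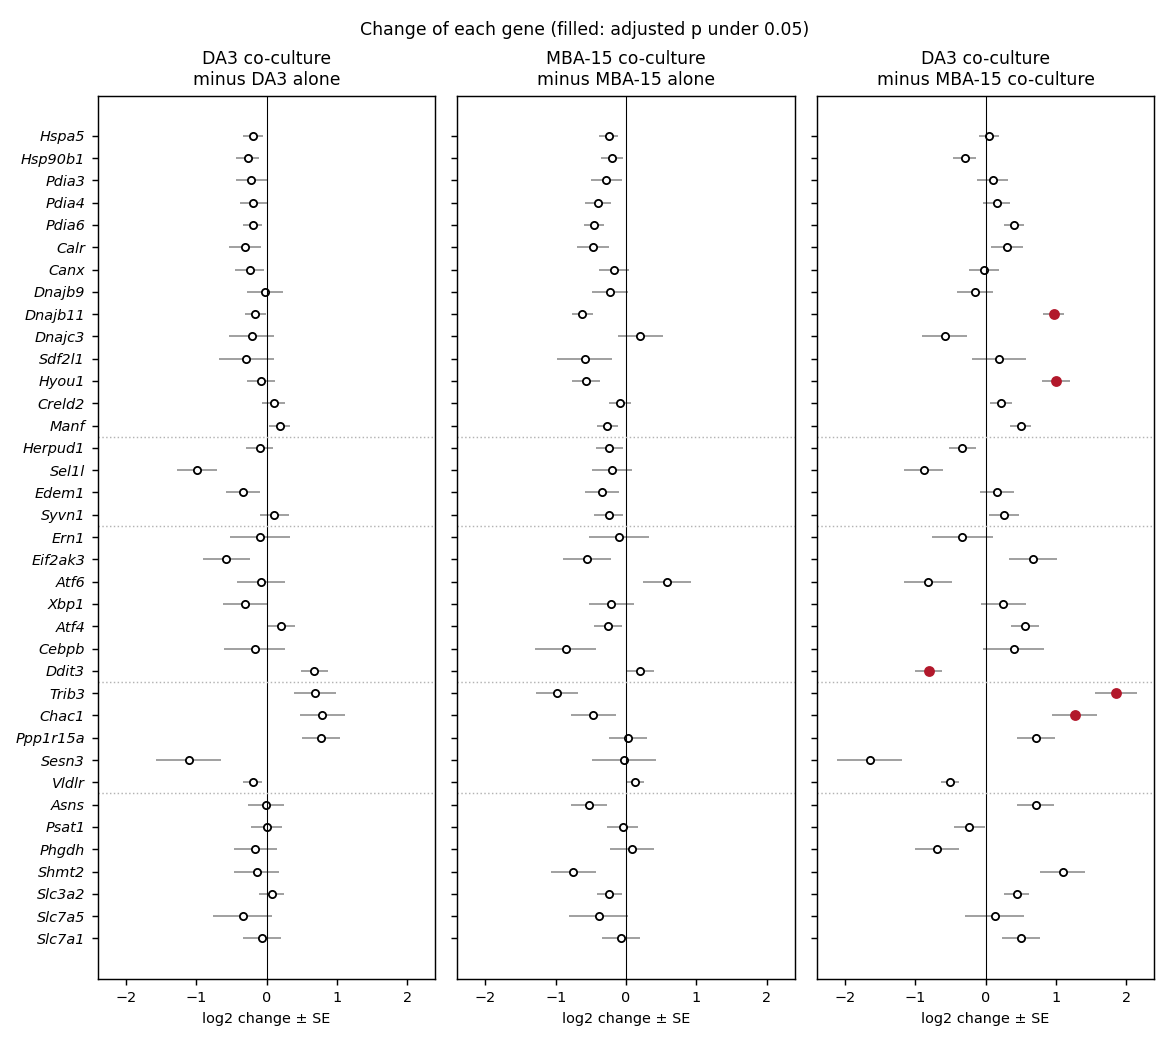
Log2 change of each of the 37 genes with its standard error (bars) in the 3 comparisons, ordered by role as in the heat map; filled red points passed an adjusted p of 0.05 and open points did not. No gene passed in the culture comparisons, and 5 did between the fractions: Dnajb11, Hyou1, Trib3 and Chac1 above 0 and Ddit3 below it.

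The other members spread to both sides between the fractions. Over all 37, 14 had both DA3 arrays above both MBA-15 arrays and 8 had both below (37.8% and 21.6%, against 31.9% and 23.3% of all genes), and 13 values were below 0 (35.1%, against 41.9%). The other chaperones had values between -0.58 ± 0.32 for Dnajc3 and 0.50 ± 0.15 for Manf, and Hspa5 was at 10.69 and 10.62 in MBA-15 against 10.55 and 10.87 in DA3 (0.05 ± 0.14). The level of BiP mRNA in both fractions thus differed by less than its spread between the DA3 arrays. Dnajc3, the ER J-protein, was at 8.78 and 9.62 in MBA-15 and at 8.30 and 8.94 in DA3, with overlap. Of the genes of ER-associated degradation, Sel1l was at 8.24 and 7.85 against 7.46 and 6.86 (-0.88 ± 0.28, limma, adjusted p = 0.0931) and Herpud1 at 7.33 and 7.41 against 6.79 and 7.28 (-0.33 ± 0.19), with both DA3 arrays below both MBA-15 arrays. Among sensors and factors, Atf6 was at 8.23 and 9.08 against 8.13 and 7.54 (-0.82 ± 0.34) and Eif2ak3 at 5.76 and 5.57 against 6.65 and 6.03 (0.67 ± 0.34). Neither pair overlapped, and the 2 sensors lay on opposite sides. Atf4 had 0.56 ± 0.20 and Xbp1 0.25 ± 0.32. Among stress targets, Sesn3 was at 6.82 and 6.21 against 4.99 and 4.74 (-1.65 ± 0.46) and Vldlr had -0.51 ± 0.13, both just outside the threshold (limma, adjusted p = 0.0657 and 0.0532). Of the amino acid genes, Shmt2 was at 8.46 and 7.41 in MBA-15 and at 8.89 and 9.18 in DA3 (1.10 ± 0.32, limma, adjusted p = 0.0761). Asns was at 9.59 and 9.71 against 9.95 and 10.76 (0.71 ± 0.26), while Phgdh, the first enzyme of serine synthesis, was at 8.73 and 8.65 against 7.50 and 8.51 (-0.69 ± 0.31). A further probe set, annotated to both Phgdh and Gm6756 and not used here, ran the other way. It was at 9.28 and 9.15 in MBA-15 against 9.35 and 9.52 in DA3. By the probe sets used, 5 amino acid genes lay above 0 and 2 below it. The medians were 0.18 for the chaperones, -0.09 for ER-associated degradation, 0.25 for sensors and factors, 0.71 for stress targets and 0.44 for amino acid genes, against 0.07 over all genes.

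Genes of the same pathways outside the 37 passed in both directions between the fractions, as did all genes (4.48% higher and 8.28% lower in DA3). Of 39 other genes of ER folding, export and degradation, 2 were higher and 6 lower in DA3 (5.13% and 15.4%). The largest were Rcn3 (-2.71 ± 0.21, limma, adjusted p = 0.00078), the prolyl isomerase genes Fkbp14 (-1.92) and Fkbp7 (-1.61), and Sec24d (-1.75), a coat protein of the vesicles that carry collagen from the ER. Of 17 other sensors and factors, 1 was higher and 3 lower. Creb3l1, a factor of bone collagen secretion, had -2.06 ± 0.48, the eIF2alpha kinase PKR (Eif2ak2) -2.02 ± 0.17, Nfe2l2 -0.84 ± 0.21 and Atf6b 1.21 ± 0.20. Of 26 other ATF4 targets, 2 were higher and 3 lower in DA3 (7.69% and 11.5%). The cysteine synthesis gene Cth (-2.87 ± 0.48) and the mitochondrial folate gene Aldh1l2 (-2.61 ± 0.27) were higher in MBA-15 together with Stc2 (-1.49 ± 0.33), while the folate gene Mthfd2 (0.80 ± 0.16) was higher in DA3. Of 18 synthetases 3 were higher in DA3, Mars1 (1.18 ± 0.23), Sars (1.08 ± 0.24) and Qars (0.88 ± 0.19), and 1 was lower, Eprs (-0.60 ± 0.13). The locus of Mars1 overlaps that of Ddit3, and whether their probe sets share signal was not tested. Of 16 heat shock genes, Dnajb1 (1.09 ± 0.27) was higher in DA3, and Dnajb4 (-1.61 ± 0.22) and Hspa4l (-1.22 ± 0.18) were lower.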

How the data were processed

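The deposited values are log2 levels per probe set of mouse MoGene ST arrays, made by the authors; the submitters' processing notes name RMA and Partek 6.5. Parameters are not given in the sources used here. Array medians lay between 4.479 and 4.642, and changes are measured against the bulk of genes. Of 35556 probe sets, 21789 had exactly 1 symbol, which gave 19938 genes, with the highest-mean probe set kept and no filter. Means of the 4 groups were fitted jointly over the 8 arrays by lmFit and eBayes (limma 3.58.1, R 4.3.3), which left 4 residual degrees of freedom beside a prior of 2.6. Two-sided p-values were adjusted over all genes by the Benjamini-Hochberg method, with 0.05 as the threshold, and errors are standard errors. The number of arrays limits the precision. The members and lists were chosen with earlier results of these data known. All members may be named, with fuller values for those past the threshold and the 3 largest changes per list and comparison. Of other lists, up to 4 genes that passed, or up to 2 where none did, are named. In simulated data (19938 genes, DA3 co-culture against DA3 alone), the fit called 0 of 50 genes changed by 0.5 and 15 of 50 by 1 log2 unit. It called 41 of 50 by 2 and 48 of 50 by 4 log2 units, and 6 unchanged genes. The simulated noise was independent between arrays, with the same spread in every group. In the data, the standard deviation of the array 1 minus array 2 difference was 0.251 in DA3 alone and 0.482 in DA3 co-culture. The simulated rates therefore need not hold for these arrays. Of the members, 8 overlap another protein-coding locus. Of the listed pathway and marker symbols, 10 were not analysed here.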

Additional observations from a re-analysis of the deposited data

Results flagged for a closer look

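In 3 members the arrays of the 2 lines did not overlap in opposite directions, with the 2 DA3 co-culture arrays on 1 side of DA3 alone and the 2 MBA-15 co-culture arrays on the other side of those labelled MBA-15 alone, as in 3.32% of all genes. The difference between the 2 changes, DA3 minus MBA-15, was 1.66 ± 0.42 for Trib3 (limma, adjusted p = 0.458), 0.46 ± 0.22 for Manf (adjusted p = 0.855) and -0.33 ± 0.19 for Vldlr (adjusted p = 0.913), and none passed. The epithelial markers on the arrays labelled MBA-15 alone move with the second of these changes, and their part in it was not tested.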

How the results depend on the processing

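The count of genes that passed in DA3 co-culture against DA3 alone (8) was 3 with the replicate block, 0 with the assay number as a block, 0 with only the 2 groups fitted, 56 without dim genes, 1 over all probe sets, 120 with an intensity trend and 4 with a robust prior, and lay between 0 and 3 with 1 array left out. For MBA-15 (169) it was 28 with only the 2 groups and 326 with a trend, and between 13 and 198 with 1 array left out. For the difference of the changes (12) it was 0 with either block, 31 without dim genes, 1 over all probe sets, 29 after a second quantile normalization and 36 with a trend, and between 0 and 8 with 1 array left out. Between the fractions (2545) it was 1123 with only the 2 groups and between 1642 and 2229 with 1 array left out. The number of members that passed there (5) was 3 with the replicate block, 3 with the assay block, 1 with only the 2 groups and 3 over all probe sets, and between 2 and 8 with 1 array left out. Of the 5, the replicate block kept Dnajb11, Hyou1 and Trib3, the assay block kept Trib3, and with only the 2 groups none of the 5 passed, the 1 call being Sesn3. With the replicate block, Chac1 had an adjusted p of 0.0551 and Ddit3 of 0.0621 (limma). In the culture comparisons and their difference no member passed in any setting, but for Trib3 in MBA-15 without co-culture array 1. With 1 array left out, the chaperone median lay between -0.29 and -0.09 in DA3, -0.48 and -0.19 in MBA-15, 0.05 and 0.29 for the difference, and 0.00 and 0.32 between the fractions. That of the amino acid genes lay between -0.26 and 0.24, -0.42 and -0.03, -0.04 and 0.46, and 0.06 and 0.62. Within assay 3 the chaperone median was -0.54 in MBA-15 and 0.40 for the difference. The cause of these shifts was not tested. Over all settings, values of members that were not called changed sign in 54 of 703 cases in DA3, 36 of 740 in MBA-15, 78 of 666 for the difference and 32 of 740 between the fractions, where 0 called values did. Whether the replicate numbers are a pairing is not known. In both MBA-15 groups array 1 has assay number 4 and array 2 has assay number 3. The array 1 minus array 2 differences were correlated over genes between groups. The correlation was 0.03 between the DA3 groups, 0.01 between the MBA-15 groups and -0.41 to 0.31 over the other pairs of groups. These values cannot settle a pairing, because the groups do not all hold the same assay numbers in the same order. The arrays hold no depth, and no member was below the lowest array median.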
